A study of Mus musculus with 4 samples.

Results

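Adipose stromal cells of the subcutaneous depot were taken from the WT SC and KO SC libraries by a marker gate. The members were selected on their measured UMIs of marker genes. Barcodes qualified first by 200 or more detected genes and a mitochondrial share of UMIs of no more than 25%, where a UMI (unique molecular identifier) counts 1 captured RNA molecule. A kept barcode was a member when it held at least 3 UMIs of Dcn, at least 2 UMIs of Pdgfra, Lum and Dpt together, no UMI of the leukocyte gene Ptprc and none of the endothelial genes Pecam1 and Cdh5. The gate gave 82 members among the 971 kept barcodes of WT SC and 156 among the 1969 of KO SC. Together these were 238 of the 4927 barcodes in the 4 libraries of the series. The same gate applied to the visceral libraries gave 386 cells, used below only for comparison.

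Adipose stromal cells are the fibroblast-like cells of fat tissue. They secrete the collagens, elastic fibres and proteoglycans that surround adipocytes and vessels, and some of them are the progenitors from which new adipocytes arise. Progenitors marked by Pi16 and Dpp4 lie in the fibrous interstitium of the depot, whereas preadipocytes that have entered the adipocyte lineage express genes such as Icam1, Pparg and Fabp4. The response of stromal cells to mechanical or enzymatic stress includes immediate early genes, which encode short-lived transcription factors such as Egr1 and Fos.

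The series compared WT mice, Tie2e-cre; TERT+/+; mTmG, with KO mice, Tie2e-cre; TERTfl/fl; mTmG, in subcutaneous (SC) and visceral intraperitoneal (IP) adipose tissue. Both genotypes therefore carried the recombinase and the mTmG reporter, which turns from membrane tdTomato to membrane GFP where the recombinase has acted, and they differed in the floxed Tert alleles. All animals were male, aged 7 months, and had been given HFD (high-fat diet) for 5 months. Regulatory sequence of Tie2 drives Cre, so that Tert was targeted in endothelial cells, and Tie2 sequences can also be active in some blood cells. Tek, the gene that encodes Tie2, was detected in the stromal cells as well, as given below. Each group was 1 library. How many mice went into it is not stated in the labels, which mention cells as well as nuclei as what was loaded. The differences therefore have no measure of the variation between animals. Intervals are exact 95% intervals that cover counting error only.

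Before any result, the barcodes were compared between libraries. KO SC and WT IP shared 93 barcodes, which were 10.1% of the barcodes of WT IP, whereas the other pairs of libraries shared 0 or 1. The shared barcodes held a median of 601 UMIs in KO SC (502 to 8723) and 35392 in WT IP (27629 to 178435), and the ratio of the former to the latter had a median of 1.71%. Of the 156 KO SC members, 50 had a shared barcode (32.1%), and these 50 held 32132 UMIs, or 2.19% of the UMIs of all KO SC members. They were low in depth, since 57 KO SC members had fewer than 2000 UMIs and 50 of these were shared. Among the 50, Wt1 and Tcf21, transcription factors typical of visceral stroma, had 6 and 5 UMIs, and Tbx15 and Shox2, typical of subcutaneous stroma, had 0. Among the 106 unshared KO SC members the order was opposite, with 216 UMIs of Tbx15, 58 of Shox2 and 0 of Wt1 and Tcf21. The 82 WT SC members had 249, 60, 0 and 0 UMIs of the same genes. Of the 50 shared barcodes, 36 were also members by the same gate in WT IP, and the other 14 held Ptprc, Pecam1 or Cdh5 UMIs there. By these markers the 50 did not resemble subcutaneous stroma, but the gate was kept as set. Values are over all 156 KO SC members unless stated. Those over the 106 unshared ones are given for the lists and for genes with over 20% of their KO SC UMIs in shared barcodes. The source of the shared barcodes was not tested.

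Depth differed between the member sets. WT SC members held 1579842 UMIs with a median of 20781.5 per cell (810 to 44758), and KO SC members held 1467599 with a median of 7062 (502 to 35941). Without the shared barcodes the KO SC median was 14661 UMIs in 1435467, still below that of WT SC. The median number of detected genes was 4834 in WT SC, 2530.5 in KO SC and 3979.5 in unshared KO SC members. In WT SC the edges of the gate were nearly empty, with 1 cell at 3 Dcn UMIs and 0 at 2, and with 2 cells at a Pdgfra, Lum and Dpt sum of 2 and 3 at a sum of 1. In KO SC 4 cells lay just inside and 5 just outside the Dcn limit, all of them shared, and 18 of 20 cells at a sum of 2 were shared. The conditions on other lineages removed 12 cells in WT SC and 21 in KO SC that met the stromal conditions. A doublet caller marked 0 WT SC and 2 KO SC members.

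The label was checked against genes outside the gate. Pi16, the adipose stromal marker that the gate did not use, was found in 67.1% of WT SC members and 74.5% of unshared KO SC members. In T cells of the same libraries, which should lack it, a Pi16 UMI was found in 0.434% (WT SC, median depth 9243 UMIs) and 0.767% (KO SC, median depth 7903.5 UMIs). Col1a1, the main fibrillar collagen chain, stood at 3745 CPM (UMIs scaled to a total of 1e6) in WT SC members and 17.7 CPM in T cells of that library. Markers of other cell types were low. The 8 T cell markers together had 7 UMIs in WT SC and 5 in KO SC members, the 8 B cell markers 10 and 12, and the 8 macrophage markers 9 and 12, with Adgre1 and the C1q genes at 0. Adipoq was at 0 in both, and so were the endothelial genes Cldn5, Egfl7, Tie1 and Vwf, and the whole endothelial list gave 318 UMIs in WT SC and 247 in KO SC. Nearly all of these were Tek, with 310 and 242 UMIs. The 8 mural cell markers had 119 and 75 UMIs with Rgs5 at 0, and 47 of the WT SC total came from 1 cell. Haemoglobin and Alas2 UMIs were unevenly spread, with 10182 in WT SC, where 6 members held at least 10 of them, and 6162 in KO SC, of which 6108 were in 1 cell. Cycling genes had 103 UMIs in WT SC, 75 of them in 1 cell, and 19 in KO SC. The part of these in the results below was not tested, except where a value without the cell with most UMIs is given.

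The share of stromal cells did not differ beyond counting error when all members were taken. Members were 8.44% of kept barcodes in WT SC (6.77 to 10.4), and the KO SC share was 7.92% (6.77 to 9.20), a log2 ratio of -0.09 (-0.49 to 0.31). Without the shared barcodes the KO SC share was 5.65% (4.65 to 6.80) and the log2 ratio was -0.58 (-1.01 to -0.15). The interval of the ratio then left out 0. The share is relative to the other cells of a library, and it says nothing of the number of stromal cells in the tissue. In summed RNA, as below, more cells of a state and more RNA per cell of that state cannot be told apart. In the visceral libraries the same gate took 32.9% of kept barcodes in WT IP and 31.5% in KO IP.

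Members of both libraries fell into an interstitial progenitor state and a remainder. Each member was placed on the progenitor side if its UMIs of 11 early interstitial progenitor genes (among them Pi16, Dpp4, Cd55, Sema3c and Anxa3) exceeded those of 11 committed preadipocyte genes (among them Icam1, Pparg, Fabp4, Lpl and Col4a1), and otherwise on the other side. Most members lay near 0% or 100% of progenitor UMIs, and the zone between 40% and 60% of progenitor UMIs held 1 WT SC and 8 KO SC members. On the progenitor side were 54 of 82 WT SC members, 65.9% (54.6 to 76.0), and 87 of 156 KO SC members, 55.8% (47.6 to 63.7). Without the shared barcodes it was 82 of 106 KO SC members, 77.4% (68.2 to 84.9). KO SC thus stood below WT SC with the shared barcodes and above it without them, and the intervals of WT SC and KO SC overlapped both ways. Depth was unequal between the sides in KO SC when all members were taken, with medians of 13834 UMIs on the progenitor side and 710 on the other, and it was nearly equal without the shared barcodes, at 14454.5 and 14975. The corresponding WT SC medians were 22181 and 16631.5.

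**Figure D1:**
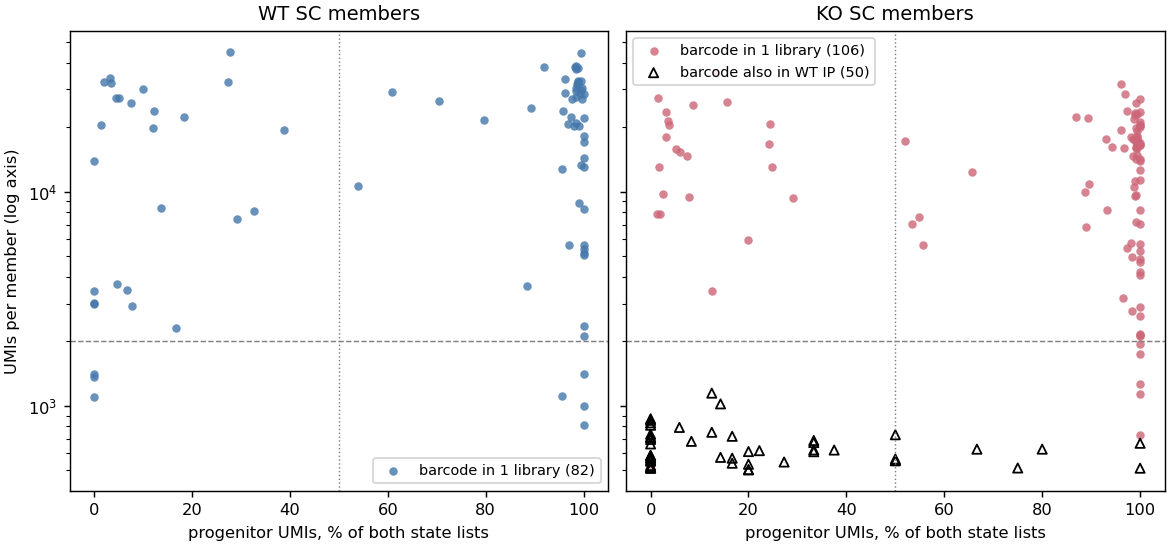
UMIs per member (log scale) against the percent of progenitor-list UMIs among the UMIs of both state lists, with WT SC on the left and KO SC on the right. Each point is a member and triangles are the 50 KO SC members whose barcode also occurs in WT IP, which lie at low depth; most members lie near 0% or 100%.

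The sides differed in far more than the lists that defined them, and they did so in both libraries. These genes are a description, since the same cells set the sides, and the rule that picked them (the interval bounds nearest 0 in both libraries) was set after the data were seen. Dmkn, Sbsn and Krtdap, genes of a secreted protein cluster first known from epidermis, were high on the progenitor side: Sbsn stood at 1043 CPM there and 8.78 CPM on the other side in WT SC, and at 894 and 5.52 CPM in unshared KO SC members. Ptgs2, which encodes an inducible prostaglandin synthase, stood at 670 and 13.2 CPM in WT SC and at 832 and 11.04 CPM in unshared KO SC members. The nuclear receptor Rorb and the guidance ligands Sema3e and Efna5 were also among the 10 genes leading on that side. On the other side stood Adam12, a metalloprotease at 323 CPM in WT SC and 389 CPM in unshared KO SC members, with 0 UMIs on the progenitor side. It was joined by the lipoprotein gene Apoe, the metalloprotease Mmp3, the proteoglycan Bgn and the collagen VI chain Col6a3. Col6a3 stood at 2309 CPM there against 212 CPM on the progenitor side in WT SC.

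KO SC members were then compared with WT SC members for all genes with at least 20 UMIs in both sets together. UMIs were summed over members, scaled to CPM, and set against each other as a log2 ratio after adding 0.5 UMI. Of 9425 genes, 258 were at least 2-fold higher in KO SC (2.74%) and 257 at least 2-fold lower (2.73%), and the median over all genes was 0.00. Without the shared barcodes 265 of 9394 were higher (2.82%) and 266 lower (2.83%). Single cells weighed on some of these, as 246 of the 258 higher and 219 of the 257 lower genes remained past 2-fold when the cell with most UMIs of the gene was left out of each library. Ratios without the top cell, here and below, kept the shared barcodes. No p-value is given, because the groups were 1 library each.

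Genes of the extracellular matrix were lower in the KO SC library across the lists. The matrix genes Dcn, Lum and Dpt, which set the gate, were not on the matrix lists. All 13 fibrillar and associated collagens lay below 0 with a median of -0.47, and 2 of them were at least 2-fold lower. The 20 compared elastic fibre and proteoglycan genes had a median of -0.46 (17 below 0, 1 at least 2-fold lower), and the 15 matricellular genes had a median of -0.62 (12 below 0, 4 at least 2-fold lower). Basement membrane genes had a median of -0.23 (12 of 13 below 0), enzymes of collagen processing -0.35 (17 of 19), and matrix proteases and their inhibitors -0.25 (16 of 20, 3 at least 2-fold lower). Without the shared barcodes the medians were -0.50, -0.55, -0.62, -0.29, -0.36 and -0.31 in the same order. The share past 2-fold in the collagen, matricellular and protease lists stands above 2.73% of all genes, but on few genes. Most matrix genes differed by less than 2-fold.

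**Figure D2:**
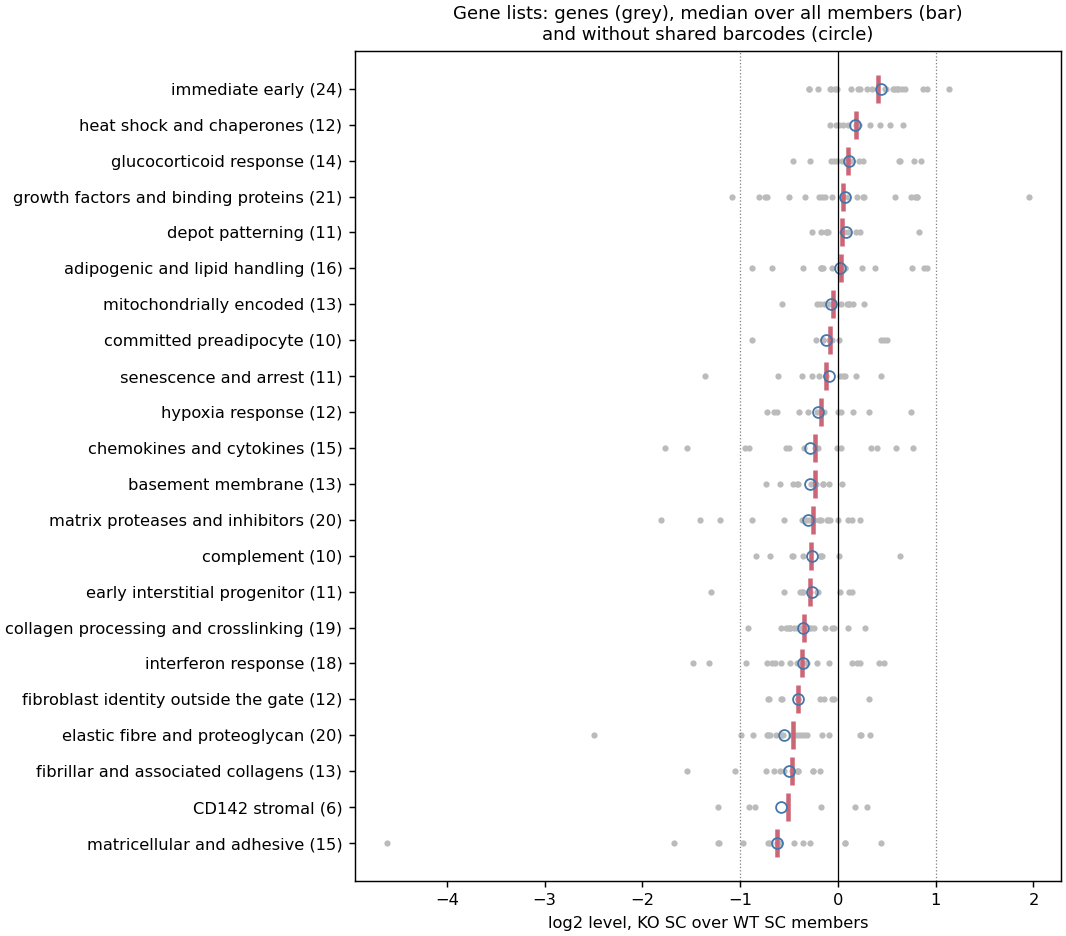
Log2 ratios KO SC over WT SC of the compared genes of 22 gene lists, with the list medians for all members and for members without shared barcodes. The matrix lists lie mainly below 0, with medians of -0.23 to -0.62, and the immediate early list has a median of 0.41.

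Among the chains of the common fibrils, Col1a1 (GRCm38 chromosome 11, 94936224 to 94953042) stood at 2828 CPM in KO SC against 3745 in WT SC, a log2 ratio of -0.41 (-0.46 to -0.35). Col3a1 (chromosome 1, 45311538 to 45349706) stood at 5886 and 7818 CPM, -0.41 (-0.45 to -0.37), and Col1a2 at 4526 and 5131 CPM, -0.18 (-0.23 to -0.13). The 3 abundant fibril chains were thus all lower by less than 2-fold. The collagen VI chains, which form beaded filaments around cells, lay somewhat lower, with Col6a1 at -0.73 (-0.85 to -0.62) and Col6a2 at -0.65 (-0.79 to -0.52). The collagens past 2-fold were Col12a1, which binds fibril surfaces, at -1.05 (-1.34 to -0.77) and at -0.98, no longer past 2-fold, without the top cell of each library, and Col8a1, a short-chain collagen of vessels, at -1.55 (-2.17 to -0.99). Col8a1 had 33 UMIs in KO SC against 105 in WT SC, and 10 of the 33 came from shared barcodes, so that it stood at -2.03 without them.

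Sparc (chromosome 11, 55394500 to 55423183), a collagen-binding glycoprotein, was the most abundant of the matricellular genes at 4050 CPM in KO SC against 6655 in WT SC, -0.72 (-0.76 to -0.67). Fn1, which encodes fibronectin, stood at 2587 and 3537 CPM, -0.45 (-0.51 to -0.39). Postn (chromosome 3, 54361109 to 54391037), which encodes the matricellular protein periostin, had 251 UMIs in KO SC against 864 in WT SC, 171 and 547 CPM, and a log2 ratio of -1.67 (-1.89 to -1.47). Of the 251, 56 UMIs came from the shared barcodes, and without them the ratio was -2.01. A Postn UMI was found in 52.4% of WT SC and 17.9% of unshared KO SC members, and in 38.7% and 8.08% of members with at least 2000 UMIs after each was thinned to 2000 UMIs. In T cells the share was 0.651% and 0.0852%. In the visceral libraries, where 5.69% of compared genes were at least 2-fold higher in KO IP than in WT IP and 2.63% at least 2-fold lower, Postn stood at -0.41.

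Further genes past 2-fold rested in part on few cells. Ccn2, a growth factor target that binds matrix, stood at -1.21 (-1.63 to -0.83), and at -0.95 without the cell with most UMIs in each library. Mgp, an inhibitor of calcification, stood at -1.23 (-1.37 to -1.09), and 45.8% of its WT SC UMIs and 50.4% of those of unshared KO SC members were in 1 cell each. Shared barcodes held 174 of its 577 UMIs in KO SC, and it stood at -1.71 without them. It stood at -0.97 without the top cell of each library but with the shared barcodes kept. Tnc had 1 UMI in KO SC against 39 in WT SC, of which 97.4% were in 1 cell. Timp1, a metalloprotease inhibitor, had 85 UMIs in KO SC against 212 in WT SC, -1.21 (-1.59 to -0.84). Of the 85, 65 came from shared barcodes, so that Timp1 stood at -3.24 without them. It stood at -0.63 without the top cell of each library, a setting that kept the shared barcodes. The size of its ratio thus ranged widely. When each cell was weighted equally with the shared barcodes included, Timp1, Mgp, Ccn2, Col8a1, Bgn, Adamts4 and Mdk stood higher in KO SC, and without the shared barcodes all of them stood lower again.

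Elastic fibre and proteoglycan genes followed the same direction. Fbn1, the core of microfibrils, stood at 1763 CPM in KO SC against 2887 in WT SC, -0.71 (-0.78 to -0.64), Eln at -0.87 (-1.06 to -0.68), and Fbln2 at -0.70 (-0.83 to -0.56). Mfap4, another microfibril protein, had 16 UMIs in KO SC against 100 in WT SC, -2.50 (-3.40 to -1.77), and stood at -2.66 without the top cells. It was found in 15.9% of WT SC and 2.83% of unshared KO SC members, and 1 cell held 36% and 50% of its UMIs. Bgn (chromosome X, 73483602 to 73495933), which encodes the small proteoglycan biglycan, stood at 510 and 1018 CPM, -0.996 (-1.12 to -0.87), just under 2-fold, and at -1.11 without the shared barcodes. The exceptions were Ltbp1, which holds latent TGF-beta in the matrix, at 0.33 (0.20 to 0.46), Prelp at 0.22 and Podn at 0.23. Among the proteases, Mmp19 stood at -1.81 (-2.48 to -1.22), the aggrecanase Adamts4 at -1.41 (-2.02 to -0.85), or -1.75 without shared barcodes, and the collagen-degrading cathepsin Ctsk at -0.88 (-1.06 to -0.69). Timp2, an abundant inhibitor at 2552 and 2550 CPM, stood at 0.00 (-0.06 to 0.07).

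**Figure D3:**
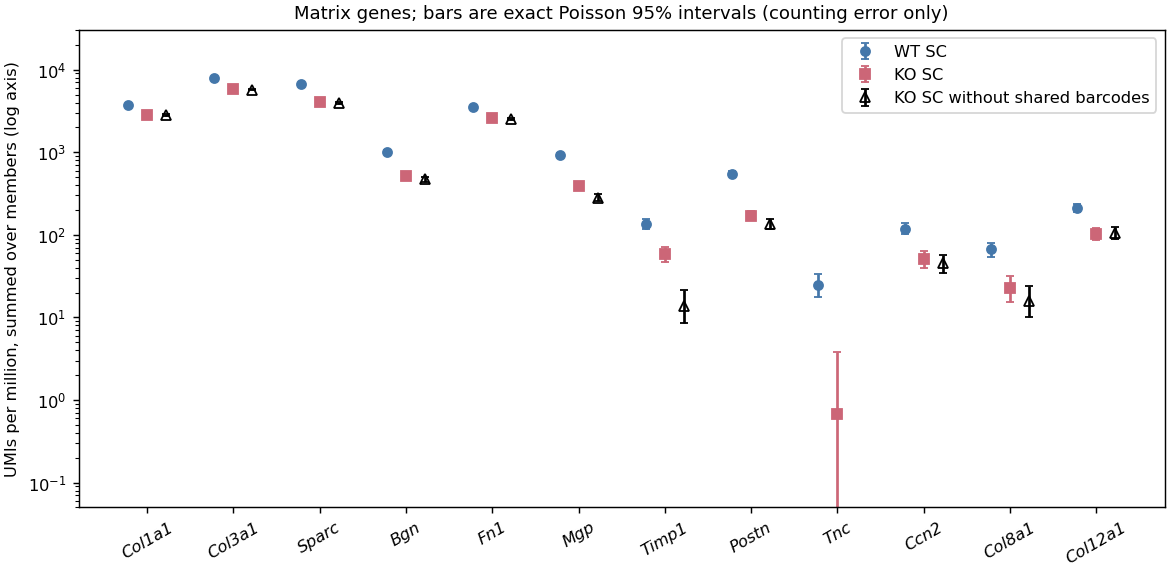
Levels in CPM (log scale) of 12 matrix genes in WT SC members, all KO SC members and KO SC members without shared barcodes, 1 library per group, with bars for the exact 95% Poisson interval. Tnc without shared barcodes has 0 UMIs and is not drawn; Postn stands at 547 CPM in WT SC and 171 CPM in KO SC.

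Sums over cells give deep cells the most weight, so levels were also taken cell by cell, in members with at least 2000 UMIs and no shared barcode (75 in WT SC and 99 in KO SC). The median cell held 5556 CPM of Col3a1 in WT SC (quartiles 2448 and 10146) and 1464 CPM in KO SC (750 and 3861), a wider gap than between the sums. For Sparc the medians were 4608 and 2138 CPM, and for Col1a1 2985 and 1222 CPM. Matrix genes of the gate, whose own UMIs chose the members, went both ways. Dcn was higher in KO SC, with medians of 8299 CPM in WT SC and 11534 in KO SC. Lum, at 421 and 58.1 CPM, and Dpt, at 1629 and 1415 CPM, were lower. Over the 13 collagens the median cell was lower in KO SC for 11, and for the other 2 it held 0 in both libraries. The quartile ranges of the libraries overlapped for Col3a1 and for Sparc.

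The gap in collagens was wider on the progenitor side than on the other side. On the progenitor side, 50 WT SC and 77 KO SC members were compared cell by cell. For collagens with a median cell above 0 in both libraries, the median log2 ratio of these medians was -0.71 there and 0.07 on the other side. Over the members of both sides it was -0.92, so that cell by cell the progenitor-side gap was the narrower of these. The median progenitor-side cell held 2987 CPM of Col3a1 in WT SC and 1299 in KO SC, and 3958 and 1892 CPM of Sparc. On the other side, with 25 WT SC and 22 KO SC members, the medians were 12141 and 13016 CPM of Col3a1 and 7254 and 5356 CPM of Sparc. Summed over unshared members, the 13 collagens had a median log2 ratio of -0.78 on the progenitor side (13 below 0) and -0.14 on the other (10 below 0), beside all-gene medians of -0.05 and 0.09. Elastic fibre and proteoglycan genes stood at -0.66 and -0.28 and basement membrane genes at -0.47 and -0.19. Summed matricellular genes stood at -0.36 and -0.59. Cell by cell, the progenitor side kept this direction, with the median cell lower in KO SC for 12 collagens and higher for 0. Among the other members it did not, with 6 collagens lower and 5 higher, 5 elastic fibre and proteoglycan genes lower and 12 higher, 6 basement membrane genes lower and 6 higher, and 5 matricellular genes lower and 5 higher. Whether the sides differ was not tested, and the mix of sides enters each value over all members.

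**Figure D4:**
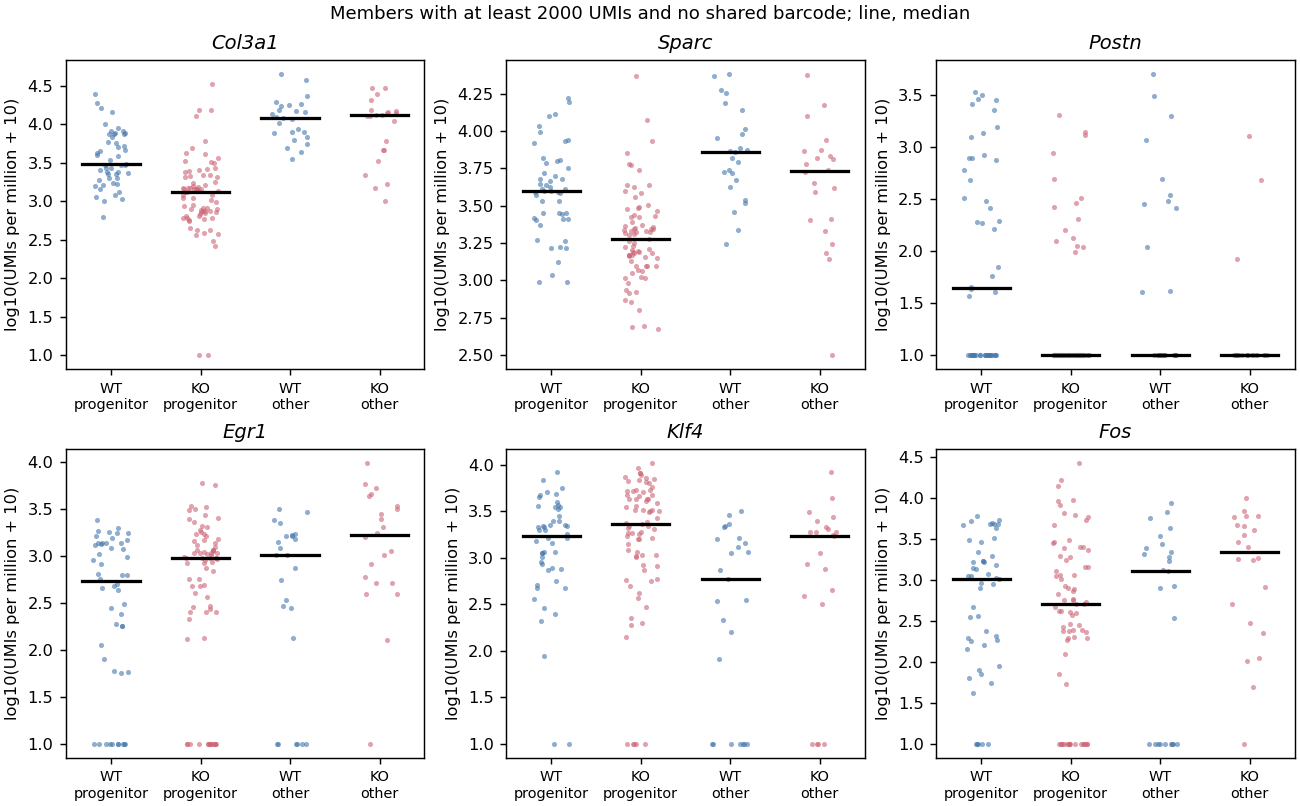
Level per member, as log10 of CPM plus 10, of 3 matrix genes (top) and 3 immediate early genes (bottom), in members with at least 2000 UMIs and no shared barcode, by library and by side; the black line is the median. Col3a1 medians on the progenitor side are 2987 CPM in WT SC and 1299 CPM in KO SC, and the points at the bottom of the axis are members with 0 UMIs.

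Immediate early genes stood higher in the KO SC library. The 24 genes had a median log2 ratio of 0.41 (0.44 without shared barcodes), 17 lay above 0, and 1, Egr3, was past 2-fold at 1.13 on 25 and 12 UMIs. Egr1, a zinc finger activator, had 1530 CPM in KO SC against 1013 in WT SC, 0.60 (0.50 to 0.69). Klf4 had 3142 and 2048 CPM, 0.62 (0.55 to 0.68), Atf3 532 and 330 CPM, 0.69 (0.53 to 0.85), and Ier2 455 and 249 CPM, 0.87 (0.69 to 1.05). Maff stood at 0.91 (0.55 to 1.28) and Zfp36, which destabilises inflammatory transcripts, at 0.49 (0.37 to 0.62). The list did not move as a block. Jun stood at -0.07 (-0.17 to 0.02), Jund at -0.29 (-0.38 to -0.21), Klf2 at -0.21 (-0.32 to -0.10) and Socs3 at -0.29 (-0.49 to -0.11).

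Fos went in opposite directions by the sum and by the median cell. Its summed level was 2159 CPM in KO SC against 1867 in WT SC, 0.21 (0.14 to 0.28), whereas the median cell held 568 CPM in KO SC against 1052 in WT SC. Egr1 and Klf4 kept their direction cell by cell, with medians of 952 and 611 CPM for Egr1 and 2018 and 1298 CPM for Klf4. Over the list the median cell was higher in KO SC for 18 genes and lower for 3. Among progenitor-side members the count was 17 and 4, and among the others 15 and 5. By sums, the list median was 0.46 on the progenitor side and 0.05 on the other. In the visceral libraries the list had a median of -0.08 in KO IP against WT IP. 

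The promoters of the immediate early genes were read for the letters of 3 binding motifs, in the 250 bases before the start of transcription on both strands, from RefSeq annotation on GRCm38.p6. The cyclic AMP response element core TGACG was found for 12 of the 20 genes that the table holds (60%), beside 19.8% of all 27025 genes. The AP-1 site TGANTCA, bound by Fos and Jun proteins, was found for 0 of 20, beside 7.82% of genes, and the serum response element for 2 of 20, beside 1.62%. TGACG and TGANTCA share their first letters but cannot be the same match. Ier2, Egr1, Egr3 and Myc were not in the table. Of the genes whose ratios are given above, Fos, Atf3, Klf4 and Maff hold the core and stood above 0 by sums. Jun, Jund and Socs3 lack it and stood below 0 by sums, but the interval of Jun held 0. By the median cell, Fos was lower in KO SC (568 CPM against 1052 in WT SC) and Jun was higher (628 against 576). Klf2 and Zfp36 went the other way, as Klf2 holds it and stood at -0.21 while Zfp36 lacks it and stood at 0.49. Whether the core goes with the ratios over the list was not tested. Atf3, Fos and Klf4 are shown as examples with the core, and Jun as one without it. Capitals mark TGACG, or CGTCA where it lies on the opposite strand. The windows are chr1:191183334-191183583 (minus strand) for Atf3, chr12:85473640-85473889 (plus) for Fos, chr4:55532476-55532725 (minus) for Klf4 and chr4:95052223-95052472 (minus) for Jun.
Atf3: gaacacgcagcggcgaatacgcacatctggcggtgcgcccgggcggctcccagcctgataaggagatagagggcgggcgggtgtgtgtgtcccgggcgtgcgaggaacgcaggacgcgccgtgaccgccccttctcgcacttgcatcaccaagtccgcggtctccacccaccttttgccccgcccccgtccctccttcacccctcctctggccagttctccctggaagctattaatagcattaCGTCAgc
Fos: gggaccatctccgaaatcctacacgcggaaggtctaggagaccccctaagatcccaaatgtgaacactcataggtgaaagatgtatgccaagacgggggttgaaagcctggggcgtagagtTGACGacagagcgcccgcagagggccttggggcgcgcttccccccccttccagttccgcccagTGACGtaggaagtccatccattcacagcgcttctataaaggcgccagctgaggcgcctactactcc
Klf4: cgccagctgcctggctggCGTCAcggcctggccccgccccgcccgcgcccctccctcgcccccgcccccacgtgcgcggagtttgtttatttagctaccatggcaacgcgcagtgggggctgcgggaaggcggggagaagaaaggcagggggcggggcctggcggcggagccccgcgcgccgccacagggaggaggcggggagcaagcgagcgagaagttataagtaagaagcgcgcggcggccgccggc
Jun: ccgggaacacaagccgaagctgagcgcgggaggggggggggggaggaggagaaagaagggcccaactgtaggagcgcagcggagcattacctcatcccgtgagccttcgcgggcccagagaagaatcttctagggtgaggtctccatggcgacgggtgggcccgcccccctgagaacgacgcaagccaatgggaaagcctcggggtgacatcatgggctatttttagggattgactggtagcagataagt
The core lies near the end of the window in Atf3 and near its beginning in Klf4, and Fos holds it at 2 places. A match of letters is a description and not a bound site.

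Stress genes of other kinds stood less far from the median of all genes. The 12 heat shock genes had a median of 0.19 (10 above 0), led by the inducible Hsp70 gene Hspa1b at 0.67 (0.45 to 0.89) and the cochaperone Dnaja1 at 0.53 (0.38 to 0.67). Heat shock and immediate early genes both respond to tissue handling, and the part of handling in these values was not tested. Of 14 compared genes that respond to glucocorticoids, the median was 0.11, and the metallothioneins Mt1 and Mt2 stood at 0.78 (0.69 to 0.86) and 0.85 (0.73 to 0.96), Errfi1 at 0.63 and Nfkbia at 0.64. Classical targets of the receptor on the list, Fkbp5 and Tsc22d3, stood at 0.05 (-0.30 to 0.39) and -0.01 (-0.28 to 0.27). The members that stood higher thus include metal-binding proteins and inhibitors of growth factor and NF-kappaB signalling rather than the list as a whole.

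Genes of immune signalling were mostly lower. The complement list had a median of -0.27 (8 of 10 below 0), with C4b at -0.83 (-1.07 to -0.60) and C2 at -0.69 (-1.12 to -0.28), whereas the terminal component C7 stood at 0.63 (0.41 to 0.86), 46.6% of its WT SC UMIs being in 1 cell. Of 15 compared chemokines and cytokines, 10 lay below 0 with a median of -0.23, and 2, Ccl8 and Cxcl9 (4 and 16 UMIs), were at least 2-fold lower, beside 2.73% of all genes. Cxcl12, the ligand that retains haematopoietic cells, stood at -0.96 (-1.29 to -0.64), Ccl8 at -1.55 (-2.26 to -0.92) on 26 and 83 UMIs, and Il6 at -0.91 (-1.30 to -0.55). Cxcl1 at 0.34 (0.23 to 0.45) and Csf1 at 0.40 (0.19 to 0.62) stood higher. The interferon response list had a median of -0.37 (13 of 18 below 0), with Ifi27 at -0.67 (-0.92 to -0.42) and Bst2 at -0.58 (-0.92 to -0.24), and 2 genes of few UMIs, Ifit1 and Ifit3, at least 2-fold lower, beside the same 2.73%. By side, the chemokine list stood at -0.16 among progenitor-side members and -0.999 among the others, on 11 and 10 compared genes.

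The lists of state markers had medians from -0.51 to -0.08. The progenitor list had a median of -0.29 (8 of 11 below 0), with Pi16 at -0.21 (-0.28 to -0.14), Sema3c at -0.39 (-0.50 to -0.28), Anxa3 at 0.02 (-0.08 to 0.12), and Dact2, a modulator of Wnt signalling, at -1.30 (-1.68 to -0.93). The committed preadipocyte list stood at -0.08 over 10 compared genes, with Pparg, the master regulator of adipogenesis, at -0.06 (-0.65 to 0.52) and Fabp4 at 0.01 (-0.16 to 0.18). The adipogenic and lipid list stood at 0.03 over 16 genes. In it Zfp423, a preadipocyte determination factor, stood at 0.89 (0.39 to 1.40) and Apoe at 0.92 (0.71 to 1.13), with 42.9% of the WT SC UMIs of Apoe in 1 cell. The CD142 stromal list, of a population described as restraining adipogenesis, had a median of -0.51 over 6 genes, with its namesake F3 at -0.17 (-0.47 to 0.12).

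Secreted growth factors went both ways, with a median of 0.05 over 21 genes. Igf1 stood at 204 CPM in KO SC against 118 in WT SC, 0.79 (0.52 to 1.06), and its binding protein Igfbp3 at 0.80 (0.43 to 1.19). The Wnt antagonist Sfrp2 stood at 0.81 (0.61 to 1.01), and Vegfa, the main angiogenic factor, at 155 and 91.8 CPM, 0.75 (0.45 to 1.06). Fgf10 had 30 UMIs in KO SC against 8 in WT SC, 1.95 (0.85 to 3.35). Lower in KO SC were Igfbp7 at -0.73 (-0.84 to -0.61), Tgfb1 at -0.81 (-1.42 to -0.23) and Angpt1, which stabilises vessels, at -1.08 (-1.73 to -0.49) on 33 and 76 UMIs.

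Hypoxia and cell cycle arrest genes showed no common direction over all members. The hypoxia list had a median of -0.18 (8 of 12 below 0), with Hif1a at 94.7 CPM in KO SC against 94.95 in WT SC, -0.003 (-0.35 to 0.34), Vegfa on the higher and Adm at -0.66 (-0.95 to -0.37) on the lower side. The senescence and arrest list stood at -0.12 over 11 genes. Over unshared members it stood at 0.07 on the progenitor side, with 5 genes above and 5 below 0. On the other side it stood at -0.42, with all 6 compared genes below 0. Cdkn1a, which encodes p21, stood at 306 and 270 CPM, 0.18 (-0.01 to 0.38), Cdkn2a had 0 UMIs in both sets, and Cdkn2c stood past 2-fold at -1.36 on 8 and 23 UMIs. Mitochondrially encoded transcripts had a median of -0.05 and none of the 13 was past 2-fold. Tert had 0 UMIs in members of both libraries, which by a limit of 3 counts allows up to 1.90 CPM in WT SC and 2.09 CPM in unshared KO SC members, so that no difference in it was detectable at this depth. The same limits hold for Cdkn2a. Ribosomal protein genes stood at 0.17 over 78 genes, with 66 above 0. They stood at 0.24 on the progenitor side (74 of 78 above 0) and at -0.24 on the other (64 of 77 below 0).

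Leaving out the shared barcodes moved the medians of these other lists little. They stood at 0.18 for heat shock, 0.12 for glucocorticoid response, -0.27 for complement, -0.29 for chemokines and cytokines and -0.36 for interferon response. They stood at -0.27 for progenitor, -0.12 for committed preadipocyte, -0.58 for CD142 stromal, 0.02 for adipogenic and 0.07 for growth factor genes. Hypoxia genes stood at -0.20, senescence genes at -0.09, mitochondrially encoded genes at -0.07 and ribosomal protein genes at 0.18.

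By a fixed rule of size, 12 higher and 12 lower genes, ranked by the interval bound nearest 0, were taken from 6627 genes with at least 50 UMIs. Sult1e1 (chromosome 5, 87575969 to 87591594), an oestrogen sulfotransferase, had 487 UMIs in KO SC against 72 in WT SC, 332 and 45.6 CPM, and a log2 ratio of 2.86 (2.505 to 3.24). It was found in 26.4% of unshared KO SC and 10.98% of WT SC members, in 20.2% and 5.33% after thinning, and in 0.341% of KO SC and 0 of 461 WT SC T cells. The gap lay mainly outside the progenitor side, where Sult1e1 stood at 1140 CPM in the 24 unshared KO SC members and 63.7 CPM in WT SC. Inmt (chromosome 6, 55170626 to 55175043), a methyltransferase of tryptamine, had 358 and 127 UMIs, 1.60 (1.31 to 1.91). Tnfsf9 (chromosome 17, 57105325 to 57107757), the ligand of the costimulatory receptor 4-1BB, had 247 and 72 UMIs, 1.88 (1.501 to 2.28), and stood higher on both sides.

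Of the other genes that were higher, Dchs2, a large cadherin, had 110 and 14 UMIs and stood at 3.04 (2.27 to 3.998), and 107 of its UMIs were in the 24 unshared KO SC members outside the progenitor side. Tox had 66 of its 68 UMIs there too. Spon1, L3mbtl4, Pde4d and Ptprk stood at 2.53, 3.73, 1.87 and 1.67, on 45 to 96 UMIs in KO SC. The extracellular protein gene Myoc had 351 and 138 UMIs, 1.45 (1.16 to 1.75), nearly all on the progenitor side and with 41.0% of the KO SC and 56.5% of the WT SC UMIs in 1 cell. Ankrd1, a target of mechanical signalling, stood at 3.86, but 86.7% of its 60 KO SC UMIs were in 1 cell, and it stood at 1.87 without the top cells. The olfactory receptor gene Olfr1033 stood at 2.05, and 54.6% of its KO SC UMIs were in 1 cell.

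Among the genes lower in KO SC were Postn, Mfap4 and Mmp19 of the matrix lists. Cilp, a matrix protein that binds growth factors, had 39 and 190 UMIs, -2.16 (-2.71 to -1.67), and stood at -2.52 without the top cells. In each library 1 cell held most of its UMIs, with 53.2% in WT SC and 73.5% in unshared KO SC members. Fbln7, a fibulin, had 11 and 72 UMIs, -2.55 (-3.67 to -1.68), and all 72 were outside the progenitor side. Gstp1, a glutathione transferase, had 6 and 44 UMIs, -2.67 (-4.29 to -1.53), and is a gene with a near-identical copy in the mouse genome, so that reads may be split between them. Cobll1, Mdk and Diaph3 stood at -2.62, -2.04 (-2.38 without shared barcodes) and -1.90, and Duox1, which makes hydrogen peroxide and was seen only on the progenitor side, at -1.86 on 18 and 72 UMIs. Tagln, a contractile protein of mural cells, had 5 and 48 UMIs, with 91.7% of the WT SC UMIs in 1 cell and 4 of the 5 KO SC UMIs in shared barcodes, which left 1. St7 stood at -1.51 with 52.3% of the WT SC UMIs in 1 cell and at -0.57 without the top cells.

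Set against visceral cells by the same gate, subcutaneous members carried a regional signature in both genotypes. Of 11202 genes compared in WT, 802 were at least 2-fold higher in SC (7.16%) and 1062 lower (9.48%). Of 11125 compared in KO, 713 were higher (6.41%) and 1334 lower (12%), and without the shared barcodes 714 (6.43%) and 1367 (12.3%). The all-gene medians were -0.09 in WT and -0.11 in KO. The WT comparison rests on WT IP, whose barcodes KO SC shared, and each comparison uses libraries of different depth.

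Transcription factors that pattern the depots were among the genes that differed. Tbx15, a T-box factor of dorsal and subcutaneous mesenchyme, stood at 158 CPM in WT SC and 1.05 in WT IP, and at 150 CPM in unshared KO SC members and 2.06 in KO IP. Shox2 stood at 38.0 CPM in WT SC and 40.4 in unshared KO SC members, with 0 UMIs in either visceral set. Hoxc10 stood at 39.2 and 35.5 CPM in SC and at 1.05 and 1.28 in IP. Wt1 and Tcf21 had 0 UMIs in WT SC and in unshared KO SC members, which by the limit of 3 counts allows up to 1.90 and 2.09 CPM (the plot of depot genes draws exact intervals instead), and stood at 143 and 94.1 CPM in WT IP and at 281 and 66.5 CPM in KO IP. Wt1 is also on the mesothelial marker list, which stood at 184 CPM in WT IP and 1005 CPM in KO IP. Hoxc8 and Hoxc9 separated the depots less, and stood at 47.5 and 33.5 CPM in WT SC and 82.5 and 24.6 in WT IP. Among genes taken by the fixed rule, Rorb stood at 284 and 1.89 CPM in WT (SC and IP) and 376 and 2.06 in KO, and Igfbp5, an insulin-like growth factor binding protein, at 4406 and 98.7 CPM in WT and 3481 and 37.5 in KO. The orphan receptor gene Mrgprg and the cadherin genes Cdh9 and Pcdh20 had 67 to 173 UMIs in SC and 0 or 1 in IP. In the other direction, Hp, which encodes haptoglobin, had 0 UMIs in WT SC and 411 in WT IP, and Col6a5 had 3 and 1967.

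**Figure D5:**
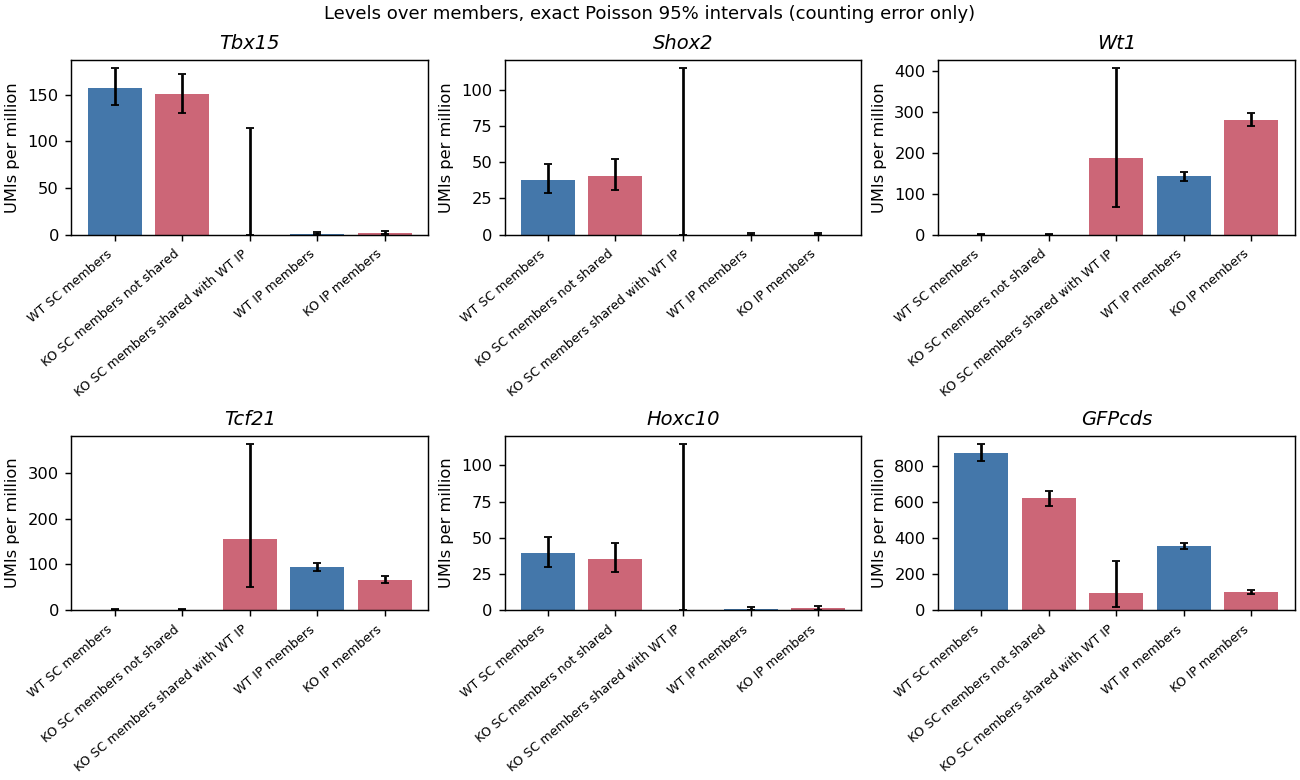
Levels in CPM of 5 depot patterning genes and of the reporter feature GFPcds, with exact 95% Poisson intervals. The sets are WT SC members, unshared KO SC members, the 50 KO SC members with shared barcodes alone, and visceral cells of both genotypes. Tbx15, Shox2 and Hoxc10 are high in WT SC and unshared KO SC members, and Wt1 and Tcf21 in IP. Among KO SC members only those with shared barcodes show Wt1 and Tcf21.

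The progenitor list had a median log2 ratio of SC over IP of 2.51 in WT and 1.95 in KO (1.97 without shared barcodes), with 11 of 11 genes above 0 in each. Committed preadipocyte genes stood at -1.08 in WT and -0.20 in KO, basement membrane genes at -0.78 and -0.52, and collagens at -0.37 and -0.32. The share of progenitor-side cells was 65.9% in WT SC against 14.9% in WT IP, and 77.4% in unshared KO SC members against 34.1% in KO IP. The progenitor and committed lists themselves set the sides, so that this share and their medians are not independent. The part of this share in the basement membrane and collagen values was not tested. Immediate early genes stood at 0.13 in WT and 0.48 in KO, and complement genes at -0.15 and -0.85.

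The members carried both Tek and the reporter. Tek stood at 196 CPM in WT SC and 165 in KO SC members, -0.25 (-0.50 to -0.00), and at 77.1 and 79.1 CPM in WT IP and KO IP. A Tek UMI was found in 59.8% of WT SC and 62.3% of unshared KO SC members, and after thinning in 18.7% and 22.2%. In T cells it was found in 0.434% (WT SC) and 0.596% (KO SC). The feature GFPcds had 873 CPM in WT SC members (827 to 920), 619 in unshared KO SC members (579 to 661), 356 in WT IP and 98.9 in KO IP cells. A GFPcds UMI was found in 38 of 82 WT SC members (46.3%), in 57 of 106 unshared KO SC members (53.8%) and in 3 of the 50 shared ones. It was uneven between cells, as 26 WT SC and 31 unshared KO SC members held at least 10 GFPcds UMIs while the median member held 0 and 1. T cells of the same libraries held 1453 CPM (67.7% of cells) in WT SC and 718 CPM (40.5%) in KO SC. Members of near-equal depth could differ, and single pairs of cells are given as examples only. In WT SC the members with 38024 and 38048 UMIs held 0 and 56 GFPcds UMIs. In unshared KO SC those with 17639 and 17615 UMIs held 0 and 56. No cell type that should lack the reporter was at hand, and the part of free RNA in the GFPcds signal of the members was not tested. The feature Tdtomato had 12.03 CPM in WT SC and 8.36 CPM in unshared KO SC members, in 15.9% and 8.49% of cells.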

How the data were processed

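Each group was 1 library of 10x 3′ single-cell RNA sequencing. The authors deposited matrices of UMI counts per gene and barcode, which the file headers credit to Cell Ranger 7.0.0. The submitters' processing notes name mm10 and STAR 2.6. The annotation and the counting of intronic reads are not given in the sources used here. The matrices hold 32290 features, 5 of them reporter features, and 0 columns were left unassigned. Coordinates came from GENCODE on GRCm38 by gene ID (32235 of 32285 matched).

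Raw UMIs were summed over members, scaled to CPM, and compared as log2 ratios after adding 0.5 UMI, for genes with at least 20 UMIs over both sets. A gene was called at 2-fold. Intervals were exact (Clopper-Pearson for shares and for ratios of counts, Poisson for levels) at 95% and cover counting error only. A set with 0 UMIs was given the limit of 3 counts. Sums and intervals used pandas 2.3.3, scipy 1.17.1 and numpy 2.4.6 in Python 3.11.15, figures used matplotlib 3.10.9, and Scrublet in scanpy 1.11.5 was used for doublets, which were marked and not removed. The caller marked 23 of 4136 kept barcodes (0.556%). Median-of-ratios scaling was an alternative. The scripts were tested on simulated data.

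Named genes were those of the lists, plus the 12 higher and 12 lower genes ranked by the interval bound nearest 0, with at least 50 UMIs over members of both SC libraries, leaving out gate genes, reporters, mitochondrial, ribosomal, haemoglobin, immunoglobulin, T cell receptor, unnamed and sex-linked genes (Xist, Tsix, Y-linked), and 8 each way between depots in both genotypes. Tek, and the genes separating the sides, were singled out after their values were seen. The members and lists were chosen with earlier results of these data known. Promoter sequences came from RefSeq (GRCm38.p6); 20 of 24 immediate early genes were matched.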

Additional observations from a re-analysis of the deposited data

Results flagged for a closer look

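The difference between KO and WT cells of the early interstitial progenitor list went opposite ways in the depots, with a median log2 ratio of -0.29 in SC and 0.40 in IP. The complement list did likewise, with -0.27 in SC and 0.29 in IP. These were the lists, of 23, whose medians had opposite signs and lay at least 0.2 from 0 in both depots. Mesothelial markers stood at 1005 CPM in KO IP and 184 CPM in WT IP, and their part in these IP medians was not tested. The difference between depots was not tested, since each group was 1 library, and the complement median in SC changed sign when each cell was weighted equally.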

How the results depend on the processing

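Of 367 list medians under the alternatives, 345 kept their sign, as did 821 of 840 values of named genes. The settings without shared barcodes, with equal weights together with that, and without the top cell were chosen after seeing the data. The log2 ratio of the share of kept barcodes that are members was -0.61 with a minimum of 5 UMIs of Pdgfra, Lum and Dpt and -0.58 without shared barcodes. Genes past 2-fold numbered 754 higher and 759 lower with a minimum of 5 UMIs, 34 and 42 with a minimum of 100 UMIs, 842 and 786 with each cell weighted equally, and 549 and 481 with that and without shared barcodes. KO SC members on the progenitor side were 73.7% after thinning to 2000 UMIs, 77.8% with at least 1000 genes and 77.4% without shared barcodes. With each cell weighted equally, KO over WT medians were -0.60 (early interstitial progenitor), 0.37 (committed preadipocyte), 0.43 (CD142 stromal), -0.32 (fibroblast identity), -0.0147 (basement membrane), -0.25 (matricellular) and 0.056 (complement). Without shared barcodes as well they were -0.14 (early interstitial progenitor), -0.53 (committed preadipocyte), -0.12 (CD142 stromal), -0.81 (collagens) and -0.50 (basement membrane). Progenitor-side members gave -0.55 (committed preadipocyte), -0.79 (collagens), -0.47 (basement membrane) and -0.37 (matricellular). The other side, all members included, gave -0.15 (early interstitial progenitor), -0.0876 (fibroblast identity), -0.15 (collagens), -0.14 (elastic fibre and proteoglycan), 0.0797 (immediate early), -0.84 (chemokines) and -0.18 (ribosomal). Without cells holding T or B cell marker UMIs, committed preadipocyte genes stood at 0.16 and mitochondrially encoded genes at 0.0857. For SC over IP in WT, equal weights gave 2.73 (early interstitial progenitor), -0.14 (collagens), -0.59 (basement membrane) and -0.11 (immediate early), and leaving out shared barcodes gave -0.28 (collagens) and -0.33 (complement). For SC over IP in KO, equal weights gave 1.47 (early interstitial progenitor), -0.00603 (committed preadipocyte), -0.0504 (collagens), -0.12 (basement membrane), 0.64 (immediate early) and -0.59 (complement). The progenitor list there stood at 1.68 without T or B cell marker UMIs, and a minimum of 100 UMIs gave -0.44 (committed preadipocyte) and -0.996 (depot patterning). The genes that changed sign with equal weights were Mdk (0.17), Timp1 (1.58), Mgp (1.05), Col8a1 (0.91), Ccn2 (0.52), Bgn (0.0716), Adamts4 (0.79) and Gsn (-0.13, and -0.0156 without shared barcodes). The cause was not tested, beyond the shared barcodes that each pair of settings differs by. No paired analysis was possible because each group was 1 library with no replicate number. Depth limits the values of genes under about 50 UMIs most, and the spread between mice is unknown.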

Other observations

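Genes taken for their difference in SC had their own values in the visceral cells, where KO IP was set against WT IP as sums over cells of the same gate. Sult1e1 stood at 1.21 (1.07 to 1.34) and Pde4d at 1.17 in IP, both higher in KO as in SC. Col8a1 stood at -1.74, Ccl8 at -2.15, Mgp at -1.53 and Mdk at -1.45, all lower in KO as in SC. Cobll1 stood at 2.24 and Cilp at 1.03 in IP, opposite to -2.62 and -2.16 in SC. Mfap4 at 0.79 (0.62 to 0.96) in IP was opposite to -2.50 in SC. Tnfsf9 at -1.11 (-1.70 to -0.57) and Ankrd1 at -1.61 (-3.48 to -0.26) were opposite to 1.88 and 3.86. Of the ranked genes, Gstp1, St7 and Myoc also changed sign, with IP intervals that spanned both signs. The other ranked genes kept their sign, though the IP intervals of L3mbtl4, Diaph3 and Duox1 spanned both signs. Mesothelial markers, which hold Wt1, differed between the visceral sets, at 184 CPM in WT IP and 1005 in KO IP, against 21.5 CPM in WT SC and 16.4 in KO SC members. Their part in the visceral values was not tested.

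Some further marker lists of other cell types were seen in members. Epithelial markers had 0 UMIs in WT SC and 1 in KO SC, adipocyte markers 1 and 2, and genes of lymph node stroma 473 and 504 with Madcam1 at 0.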
